A study of Mus musculus with 6 samples.

Results

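Imprinted genes are expressed from the allele inherited from 1 parent only, and the other allele is silenced by DNA methylation marks set in the germ line or by neighbouring non-coding transcripts. Many of them act on growth: in mouse development, paternally expressed genes such as Igf2 tend to promote it, whereas maternally expressed genes such as Igf2r, Cdkn1c and Grb10 tend to restrain it. In white fat, several are known as genes of fat storage, Mest above all, whose level in mice follows the expansion of fat mass. The 10 imprinted growth genes described here are Peg3, Igf2, Mest, Nnat, Plagl1, Ndn and Peg10, of which the paternal allele is known to be expressed, and Igf2r, Cdkn1c and Grb10, of which it is the maternal allele (for Grb10, in most tissues outside the brain). They were chosen by name, with earlier results of these data known. All 10 were among the 3162 genes held for each library, which is therefore not a result about them. RNA sequencing of whole tissue does not separate the alleles here, so "paternal" and "maternal" below refer to what is known of each gene and not to a measurement.

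Epididymal white adipose tissue came from wild-type male C57BL/6J mice aged 16 weeks, of which 3 had been deprived of food for 24 h (fasted) and 3 had been fed normally (fed). The design text describes the 3 mice of each group as biological replicates. Values are FPKM, fragment counts scaled for transcript length and for the total of the library. Sequencing depth is unknown. Expression was compared by limma on log2(FPKM + 1), with Benjamini-Hochberg adjustment over the 2999 genes whose mean reached 1 FPKM and a threshold of 0.05. On this scale the fold changes of weakly expressed genes come out too small. All 10 imprinted growth genes reached that mean.

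The genes held are largely genes that differ between these same 6 libraries. Of the 2999 tested, 2714 (90.5%) passed the threshold, 1232 (41.1%) as higher and 1482 (49.4%) as lower in fasted fat, so higher genes were 45.4% of the calls and 61.2% with median-ratio scaling. Between the groups only 18 genes tested had a log2 fold change between -0.2 and 0.4. Values of the groups did not overlap in 93.4% of the 3162 genes (41.9% higher and 51.5% lower in fasted fat). That 9 of the 10 imprinted growth genes passed, and that 9 did not overlap, is therefore near the background of this table and says nothing particular about them. If every annotated gene not tested is given the largest possible p, 364 of the 2999 (12.1%) pass, 5.74% as higher and 6.4% as lower. Peg3, Igf2 and Nnat were the 3 imprinted growth genes among them, the first pair higher and Nnat lower.

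In fasted fat 5 of the 10 genes were higher, 4 were lower and Peg10 did not pass. All 3 maternally expressed growth inhibitors rose, by log2 fold changes of 0.52 to 1.14 with a median of 0.70. The 7 paternally expressed genes were divided: Peg3 and Igf2 rose, Mest, Nnat, Plagl1 and Ndn fell, and their median was -0.89. The median over all genes tested was -0.34, and -0.04 over the 10. Of the 10, 5 changed by more than 1 on the log2 scale, against 23% of all genes tested. As the 10 were chosen with earlier results of these data known, this difference cannot be read as a trait of them. With median-ratio or quantile scaling, the median of all genes moved to -0.15 or -0.21, and each of the 10 genes kept its direction. In bulk tissue fewer cells of a type and less RNA per cell cannot be told apart.

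**Figure D1:**
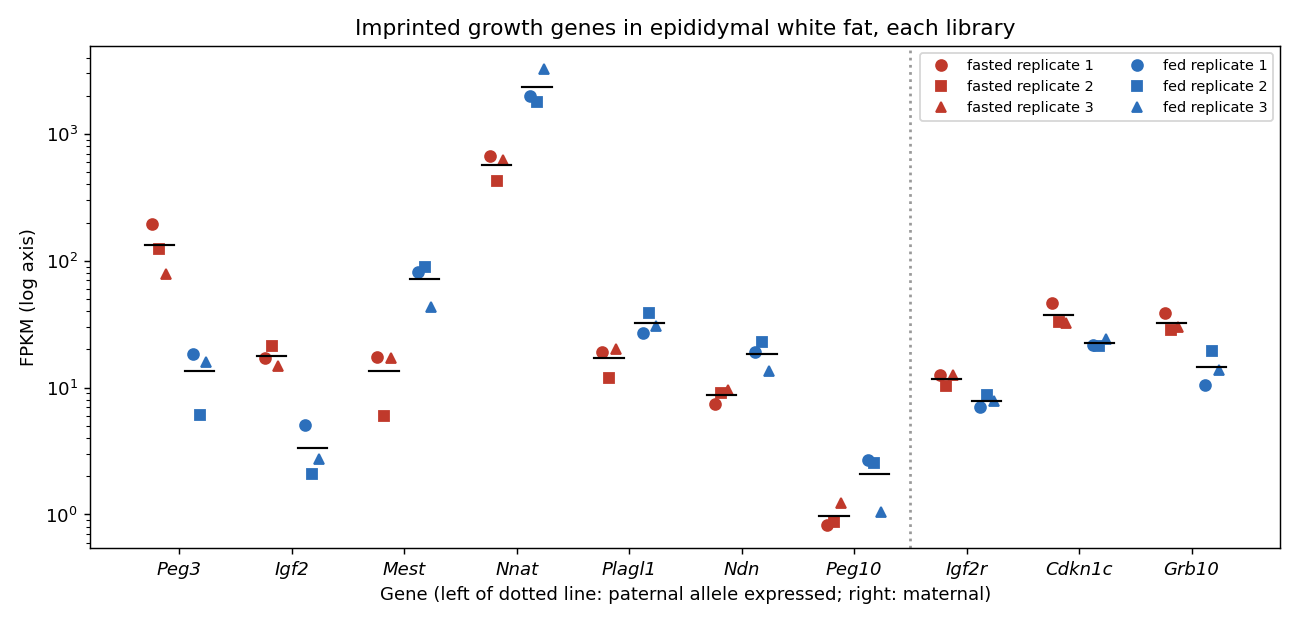
FPKM of the 10 genes in each of the 6 libraries on a log axis, with fasted mice in red to the left of fed mice in blue and black lines at the group means. Only the Peg10 groups overlap, where fasted replicate 3 had 1.24 FPKM and fed replicate 3 had 1.04 FPKM.

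Promoter windows of the paternally expressed Peg3, Mest and Nnat and of the maternally expressed Igf2r and Grb10 are shown, which differ in their number of CG dinucleotides. Imprinting marks sit on CG dinucleotides, but methylation was not measured, and whether these windows carry the marks was not tested. Each runs from 250 bases before to 50 bases after a RefSeq transcript start (GRCm38.p6), 5′ to 3′ on the gene's strand, with CG in capitals. RefSeq windows were matched for 8 of the 10 genes, 14 windows in all.
Peg3, chr7:6730370-6730669, minus strand: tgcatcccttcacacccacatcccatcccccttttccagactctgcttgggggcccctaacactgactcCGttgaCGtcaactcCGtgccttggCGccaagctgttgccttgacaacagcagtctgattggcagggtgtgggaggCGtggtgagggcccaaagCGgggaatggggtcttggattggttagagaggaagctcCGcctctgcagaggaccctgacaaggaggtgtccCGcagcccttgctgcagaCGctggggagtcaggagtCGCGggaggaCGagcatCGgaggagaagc
Mest, chr6:30737800-30738099, plus strand: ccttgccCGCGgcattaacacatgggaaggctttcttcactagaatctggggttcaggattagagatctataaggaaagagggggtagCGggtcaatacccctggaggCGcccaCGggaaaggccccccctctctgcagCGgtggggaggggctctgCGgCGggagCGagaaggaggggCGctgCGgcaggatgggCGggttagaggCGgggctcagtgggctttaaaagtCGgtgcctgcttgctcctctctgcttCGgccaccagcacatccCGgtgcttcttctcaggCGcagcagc
Nnat, chr2:157559828-157560127, plus strand: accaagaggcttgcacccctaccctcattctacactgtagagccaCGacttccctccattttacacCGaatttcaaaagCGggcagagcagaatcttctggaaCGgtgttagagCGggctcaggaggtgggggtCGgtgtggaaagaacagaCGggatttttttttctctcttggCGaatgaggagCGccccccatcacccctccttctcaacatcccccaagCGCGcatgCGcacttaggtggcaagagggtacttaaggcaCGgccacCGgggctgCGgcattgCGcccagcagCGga
Igf2r, chr17:12769657-12769956, minus strand: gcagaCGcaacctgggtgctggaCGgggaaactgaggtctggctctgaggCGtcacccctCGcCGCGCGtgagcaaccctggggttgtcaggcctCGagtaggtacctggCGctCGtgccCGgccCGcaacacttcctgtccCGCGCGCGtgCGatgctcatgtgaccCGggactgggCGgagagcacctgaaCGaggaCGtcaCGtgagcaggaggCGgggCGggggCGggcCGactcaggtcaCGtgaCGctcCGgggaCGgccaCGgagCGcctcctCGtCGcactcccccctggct
Grb10, chr11:12037371-12037670, minus strand: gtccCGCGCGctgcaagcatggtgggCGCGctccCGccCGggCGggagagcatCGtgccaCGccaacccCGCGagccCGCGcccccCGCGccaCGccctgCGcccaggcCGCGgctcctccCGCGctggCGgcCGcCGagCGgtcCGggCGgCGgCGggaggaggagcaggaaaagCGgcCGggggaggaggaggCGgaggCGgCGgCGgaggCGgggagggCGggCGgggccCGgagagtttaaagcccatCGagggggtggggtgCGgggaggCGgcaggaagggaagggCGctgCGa

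The maternally expressed genes had the denser windows of these 5, with 45 CG for Grb10 and 34 for Igf2r, against 17 for Mest, 17 for Nnat and 13 for Peg3. Not all windows of a gene were alike. A second Grb10 window held 9 CG, another Mest window held 8, and the 4 windows of Igf2 held 2 to 24. The single Plagl1 window held 26 and that of Ndn held 11. The median over the 14 windows was 15.5, against 7 over all 32851 windows of the table, but windows with at least 20 CG were 4 of the 14, close to the 26.5% among all windows. TGCCGC, the motif that the imprint-protecting zinc finger protein ZFP57 binds when it is methylated, stood on either strand in 6 of the 14 windows and in 5 of the 8 genes, against 11.6% of all windows. It contains a CG, and the Mest windows that hold it overlap almost wholly. GGGGCCCC, a motif bound by the PLAGL1 protein, was found in the Peg3 window alone among the 14, and in 1.08% of all windows. GTAAACA, a FOXO motif, and GCCATNTT, a YY1 motif, were in 0 of the 14 windows on either strand, against 3.65% and 6.05% of all windows.

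Peg3 encodes a large zinc finger protein that represses transcription and takes part in p53-dependent cell death and, in mice, in growth and feeding behaviour. Its FPKM was 193.68, 124.35 and 78.29 in fasted mice, against 18.34, 6.13 and 15.96 in fed mice. Every fasted mouse was far above every fed mouse. The group means were 132 ± 58.1 FPKM in fasted and 13.5 ± 6.47 FPKM in fed fat (SD, n = 3 each), a ratio of 9.80. On the log2 scale this was 3.23 ± 0.43 (SE; limma adjusted p = 0.00144). The stricter adjustment, counting every annotated gene, gave an adjusted p = 0.0267. Of the 2999 genes tested, 2 had a larger rise on this scale, which shrinks the changes of weakly expressed genes. By the plain ratio of means the order differs: that of Zim1, for example, was 25.9, over a fed mean of only 0.17 FPKM. Leaving out each library in turn gave 2.78 to 3.56, the lowest without fed replicate 2.

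Peg3 (ENSMUSG00000002265; chromosome 7, 6703892 to 6730431, minus strand, GRCm38) lies in an imprinted domain with Zim1, a maternally expressed zinc finger gene 7.4 kb away. Zim1 was at 6.48, 5.21 and 1.51 FPKM in fasted mice, against 0.25, 0.05 and 0.21 FPKM in fed mice. It did not exceed 0.25 FPKM in any fed library, so it reached the mean of 1 FPKM only through the fasted group. It rose by 2.07 ± 0.38 on the log2 scale (limma adjusted p = 0.00381, or 0.0705 by the stricter adjustment). In both genes fasted replicate 3 was the lowest fasted library and fed replicate 2 the lowest fed library.

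Igf2 encodes insulin-like growth factor 2, the fetal growth factor that signals through the IGF1 receptor and the insulin receptor. Fasted mice had 16.99, 21.45 and 14.92 FPKM, against 5.11, 2.09 and 2.74 FPKM in fed mice. Each fasted library exceeded each fed one, and the means were 17.8 ± 3.34 FPKM in fasted and 3.31 ± 1.59 FPKM in fed fat, a ratio of 5.37. The rise was 2.17 ± 0.26 on the log2 scale (limma adjusted p = 0.00111, or 0.0205 by the stricter adjustment). Igf2 (chromosome 7, 142650766 to 142666816, minus strand) shares 3596 exonic bases with Gm49394, an annotated protein-coding gene on the same strand, so reads of these genes may have been divided between them.

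Igf2r encodes the mannose 6-phosphate receptor, which takes IGF2 up for breakdown in lysosomes and also sorts lysosomal enzymes. It had 12.48, 10.22 and 12.67 FPKM in fasted mice, against 7.08, 8.68 and 7.91 FPKM in fed mice. Its rise was the smallest among the members that passed, 0.52 ± 0.14 on the log2 scale (limma adjusted p = 0.0119), and it did not pass the stricter adjustment (adjusted p = 0.22). Igf2r (chromosome 17, 12682406 to 12769664, minus strand) overlaps Airn, the antisense RNA that silences its paternal allele, but shares no exonic bases with it. As ligand and clearance receptor rose by different amounts, the ratio of Igf2 to Igf2r FPKM was 1.36, 2.10 and 1.18 in fasted mice, against 0.722, 0.241 and 0.346 in fed mice. Igf2 was thus above Igf2r per length in every fasted library and below it in every fed library.

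Grb10 encodes an adaptor protein that binds the insulin and IGF1 receptors and inhibits their signalling. FPKM values were 39.01, 28.58 and 29.97 in fasted mice, against 10.42, 19.27 and 13.69 in fed mice. Its lowest fasted value lay above its highest fed value, and the means were 32.5 ± 5.66 FPKM in fasted and 14.5 ± 4.47 FPKM in fed fat. The log2 fold change was 1.14 ± 0.22 (limma adjusted p = 0.00461, or 0.0853 by the stricter adjustment), with 0.94 without fed replicate 1 and 1.36 without fed replicate 2. Grb10 lies on chromosome 11 (11930508 to 12038683, minus strand).

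The rest of the insulin-like growth factor axis was more often lower than higher among the genes held. Of 31 genes listed, 11 were held and tested, of which 8 were lower and 3 higher in fasted fat, with a median of -1.40. Over all genes tested 49.4% were lower and 41.1% higher, with a median of -0.34. With median-ratio or quantile scaling 6 were lower and 3 higher, and 4 of the falls passed over all annotated genes. Igfals, encoding the subunit that stabilises circulating IGF complexes, had 3.19, 3.23 and 8.40 FPKM in fasted mice, against 22.4, 57.77 and 34.64 FPKM in fed mice (log2 fold change -2.73 ± 0.41). Pik3r1, a regulatory subunit of phosphatidylinositol 3-kinase, fell by 1.78. Igfbp5, an IGF binding protein gene, changed by -1.54, and Stc2, an inhibitor of the protease that frees IGF from its binding proteins, by -1.55. Htra1, a secreted protease that cleaves IGF binding proteins, fell by 1.40. Grb14, the close relative of Grb10 with the same inhibitory role at the insulin receptor, fell by 1.53, with 8.03, 5.42 and 6.77 FPKM in fasted mice, against 19.13, 31.24 and 15.82 FPKM in fed mice. Grb10 and Grb14 thus moved in opposite directions, and per length Grb10 was above Grb14 in all 3 fasted libraries and below it in all 3 fed libraries.

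The rises were among receptors and their substrate. Insr, the insulin receptor gene, rose by 0.69 ± 0.14 and Irs2, an insulin receptor substrate gene, by 0.72 ± 0.15. A further 3 genes of the axis were named after their values were seen. Igf1r, the receptor through which IGF2 signals, had 3.85 ± 1.03 FPKM in fasted and 2.07 ± 0.30 FPKM in fed fat (0.64 ± 0.19, limma adjusted p = 0.0159). Igf1, the related growth factor of postnatal life, had 23.19, 29.68 and 35.3 FPKM in fasted mice, against 44.57, 40.15 and 56.31 FPKM in fed mice. Its change of -0.67 ± 0.19 (limma adjusted p = 0.0136) was opposite in sign to that of Igf2, and missed the threshold with median-ratio (adjusted p = 0.0853) and quantile scaling (0.0626). Ghr, the growth hormone receptor gene, was called lower (-0.71 ± 0.28), though its groups overlapped and the call was lost with either scaling.

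**Figure D2:**
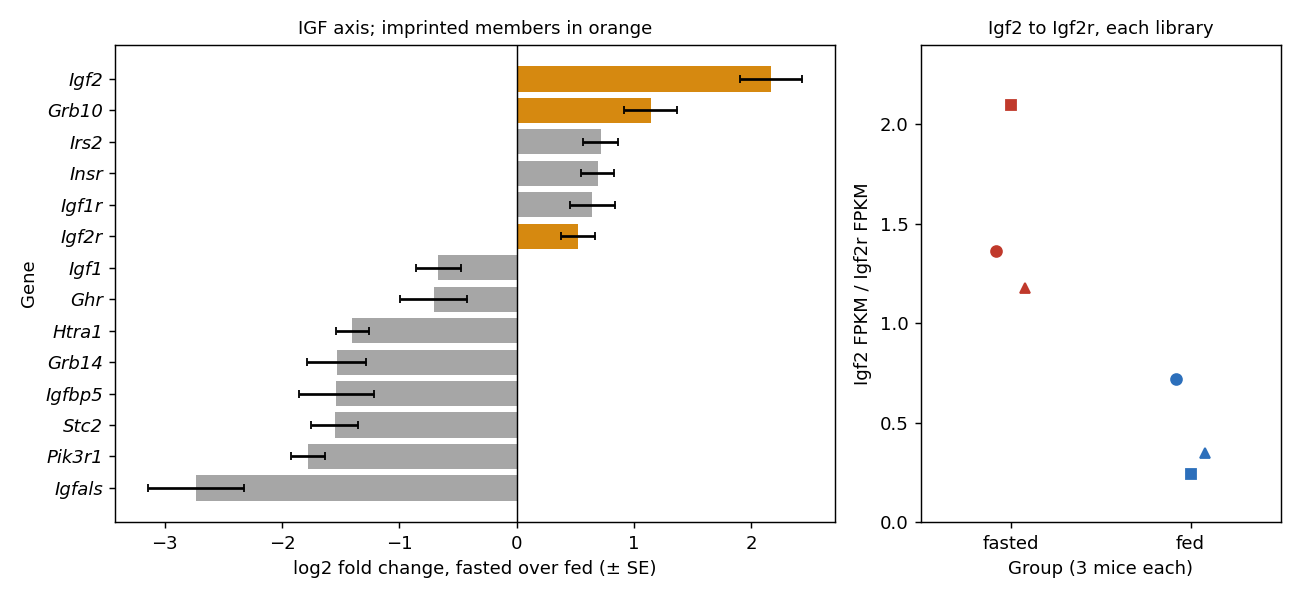
Left, log2 fold changes (fasted over fed, ± SE) of the genes held of the insulin-like growth factor axis, with the imprinted Igf2, Grb10 and Igf2r in orange. Right, the ratio of Igf2 to Igf2r FPKM in each library (circle, square and triangle for replicates 1, 2 and 3), which lies between 1.18 and 2.10 in fasted mice and between 0.241 and 0.722 in fed mice.

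Cdkn1c encodes p57, an inhibitor of cyclin-dependent kinases that halts the cell cycle in G1. Fasted mice had 46.28, 33.06 and 32.44 FPKM, against 21.7, 21.14 and 24.08 FPKM in fed mice. The fed values were close together and all lay under the fasted ones, and the change was 0.70 ± 0.16 on the log2 scale (limma adjusted p = 0.00721, or 0.133 by the stricter adjustment). Without fasted replicate 1, the highest library, it was 0.54. Cdkn1c (chromosome 7, 143458339 to 143461050, minus strand) shares 625 exonic bases with the antisense gene Gm44732, whose reads cannot be separated here because strand is not given.

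Among other cell cycle inhibitors and genes of the G1 phase, 5 of 24 listed were held, of which 0 rose by limma, 4 fell and 1 did not pass. Over all genes tested 90.5% passed, 49.4% as lower and 41.1% as higher, so that 4 of the 5 passed is not particular to them. By the stricter adjustment 0 of the 4 falls passed, although each had an unadjusted p under 0.05. Cdkn2c, encoding the kinase inhibitor p18, had 64.65, 61.65 and 67.65 FPKM in fasted mice, against 174.54, 205.29 and 113.02 FPKM in fed mice (-1.29 ± 0.21). Cdkn2b, encoding the related p15, was lower as well (-1.48 ± 0.35). E2f2, a transcription factor of S-phase entry, and Rb1, the retinoblastoma gene, fell by 0.89 and 0.48. E2f2 was weakly expressed, at 0.76, 0.38 and 0.32 FPKM in fasted mice, against 1.28, 2.73 and 1.42 FPKM in fed mice. It reached the mean of 1 FPKM only through the fed group, and was not tested without fed replicate 2. For Rb1 the call was lost with median-ratio scaling. Cdkn1c was thus the 1 kinase inhibitor gene held that rose, beside 2 that fell.

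Mest encodes a membrane protein of the endoplasmic reticulum with similarity to hydrolases, and in mice it is known for rising in fat that is being filled. Its FPKM was 17.49, 5.93 and 17.17 in fasted mice, against 82.08, 89.91 and 43.47 in fed mice. Fasted replicate 2 was far under the other fasted libraries and fed replicate 3 was the lowest fed one, yet the groups did not overlap. Means were 13.5 ± 6.58 FPKM in fasted and 71.8 ± 24.9 FPKM in fed fat, a ratio of 0.188. The log2 fold change was -2.39 ± 0.42 (limma adjusted p = 0.00334, or 0.0617 by the stricter adjustment). It was -1.92 without fasted replicate 2, and 27 of the genes tested fell further on this scale. Mest (chromosome 6, 30723547 to 30748465, plus strand) shares 912 exonic bases with Copg2 on the opposite strand, and hosts the microRNA gene Mir335.

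A list assembled around Mest, of genes known in mouse fat to vary with fat mass expansion, was held in full. All 6 of its genes fell, with a median of -2.05, whereas 49.4% of all genes tested were lower. The list was chosen with earlier results of these data known, so its shared fall is not independent evidence of a link to Mest. With median-ratio or quantile scaling 6 fell too, 4 passed the stricter adjustment, and leaving out single libraries left 5 or 6. Npr3, the clearance receptor for natriuretic peptides, had 24.9, 15.33 and 22.14 FPKM in fasted mice, against 116.32, 211.95 and 85.55 FPKM in fed mice (-2.60 ± 0.33). Sfrp5, a secreted WNT antagonist, had 7.55 ± 5.04 FPKM in fasted and 37.3 ± 24.7 FPKM in fed fat. Bmp3, a ligand of the BMP family, was at 0.49, 0.25 and 0.70 FPKM in fasted mice, against 0.87, 11.51 and 5.51 FPKM in fed mice. The call was lost when fasted replicate 1 or 2, or fed replicate 2 or 3, was left out. The leptin gene Lep and the caveolin genes Cav1 and Cav2 completed the list, with changes of -5.01 ± 0.49, -1.97 ± 0.13 and -1.76 ± 0.19. Fed replicate 2 had the highest fed value of Mest, Npr3, Sfrp5, Bmp3, Lep and Cav1.

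Nnat encodes neuronatin, a small proteolipid of the endoplasmic reticulum that affects calcium handling and is expressed in brain, pancreatic islets and fat. It was the most abundant member in both groups, at 665.98, 426.39 and 624.28 FPKM in fasted mice, against 1979.56, 1776.23 and 3264.28 FPKM in fed mice. By mean FPKM it ranked 62 in fasted fat and 7 in fed fat among the 3162 genes held. The log2 fold change was -2.00 ± 0.27 (limma adjusted p = 0.00144, or 0.0266 by the stricter adjustment), and -1.74 without fed replicate 3, its highest library. Because Nnat outweighs the other 9, the summed FPKM of the 10 genes was 1019, 671.8 and 840.9 in fasted mice, against 2173, 1987 and 3418 in fed mice. Without Nnat, the sum was 353.2, 245.4 and 216.6 in fasted mice, against 193.8, 211.1 and 153.3 in fed mice. That difference rested on Peg3: with Peg3 also left out, the sum of the other 8 was 159.5, 121 and 138.3 in fasted mice, against 175.4, 205 and 137.3 in fed mice, and the groups overlapped.

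Plagl1 encodes a zinc finger transcription factor that induces cell cycle arrest and, in mice, controls other imprinted genes, among them Igf2 and Cdkn1c. It had 18.98, 11.93 and 20.31 FPKM in fasted mice, against 27.17, 38.51 and 30.76 FPKM in fed mice. No fasted library reached the lowest fed one, and the change was -0.89 ± 0.22 on the log2 scale (limma adjusted p = 0.00871, or 0.161 by the stricter adjustment). It was -0.67 without fasted replicate 2. Its direction was opposite to that of Igf2 and Cdkn1c, and the ratio of Plagl1 to Cdkn1c FPKM was 0.410, 0.361 and 0.626 in fasted mice, against 1.25, 1.82 and 1.28 in fed mice. Plagl1 lies on chromosome 10 at 13060504 to 13131694, plus strand.

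Ndn encodes necdin, a growth suppressor of the MAGE family that binds E2F1 and p53 and, in mice, restrains the formation of adipocytes. The gene has 1 exon (chromosome 7, 62346569 to 62350262, plus strand). Fasted mice had 7.44, 8.99 and 9.6 FPKM, against 19.22, 22.83 and 13.61 FPKM in fed mice. All fasted values lay under all fed values, with a change of -0.99 ± 0.20 (limma adjusted p = 0.00489, or 0.0904 by the stricter adjustment).

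Peg10, derived from a retrotransposon and needed in mice for the placenta, was the least abundant member. It was at 0.82, 0.88 and 1.24 FPKM in fasted mice, against 2.67, 2.53 and 1.04 FPKM in fed mice. Fed replicate 3 lay within the fasted range, and the change of -0.60 ± 0.25 did not pass (limma adjusted p = 0.0528). Without fed replicate 3 it was -0.87 and passed (adjusted p = 0.0124), as it did with quantile scaling, without a filter and without the variance trend. Peg10 lies on chromosome 6 at 4747306 to 4760517, plus strand.

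**Figure D3:**
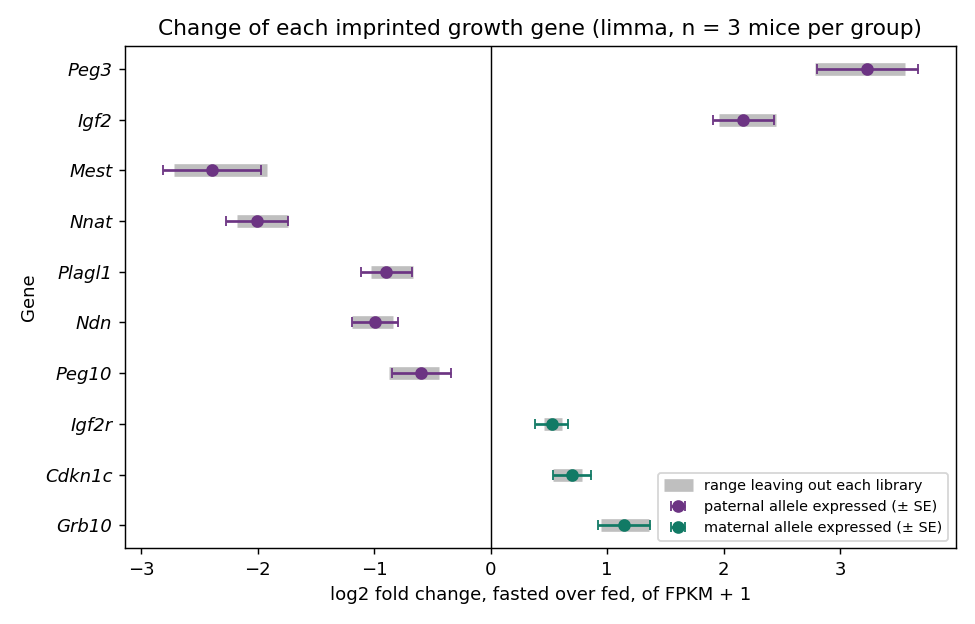
Log2 fold changes (fasted over fed) of the 10 genes with standard errors, in purple for paternally and green for maternally expressed genes, over grey bars that span the values with each library left out. No bar reaches 0, and the bars run from -2.71 to -1.92 for Mest and from 2.78 to 3.56 for Peg3.

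**Figure D4:**
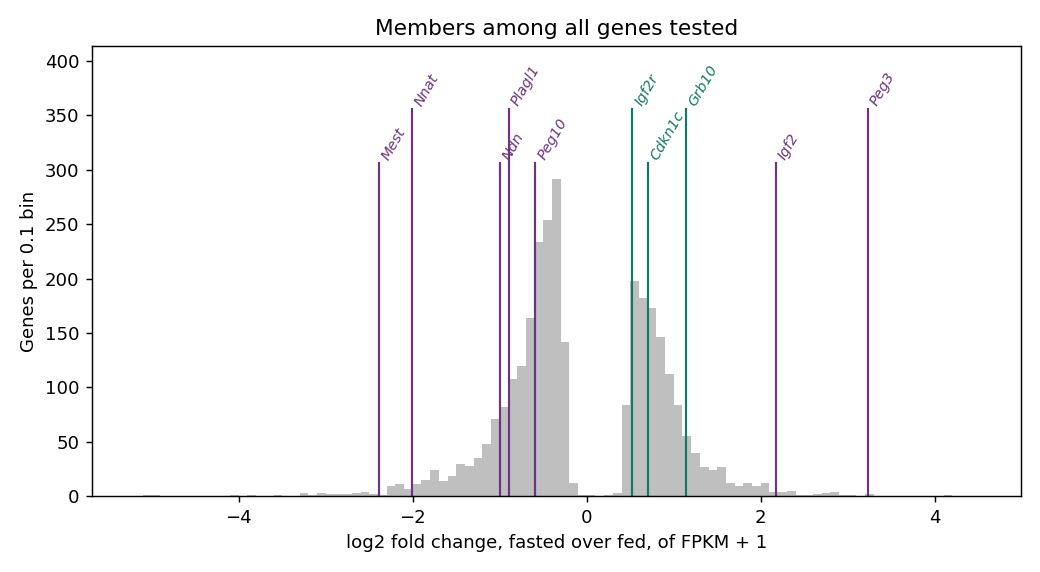
Distribution of the log2 fold change of the 2999 genes tested, in bins of 0.1, with the 10 genes marked by lines in purple (paternal allele expressed) and green (maternal allele expressed). The table holds few genes near 0. Of the 3 green lines, those of Igf2r and Cdkn1c lie within the bulk of the genes that rose. That of Grb10 lies further up, with 228 of the genes tested above it. Peg3 and Igf2 lie in the upper tail, and Mest and Nnat in the lower.

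Ordered by mean FPKM, the fasted levels ran from Nnat through Peg3, Cdkn1c, Grb10, Igf2, Plagl1, Mest, Igf2r and Ndn to Peg10. In fed fat Mest came second and Peg3 seventh. Among neighbours in the fasted order, Igf2 (14.92 to 21.45 FPKM), Plagl1 (11.93 to 20.31) and Mest (5.93 to 17.49) overlapped, as did Mest and Igf2r, and Cdkn1c and Grb10. In the fed order Cdkn1c, Ndn, Grb10, Peg3 and Igf2 each overlapped with the gene next below. Within a group the most variable members were Mest in fasted mice, with a highest value 2.95 times the lowest, and Peg3 in fed mice, at 2.99 times. Igf2r varied least in fasted mice (1.24 times) and Cdkn1c in fed mice (1.14 times). The mean log2(FPKM + 1) of the 7 paternally expressed genes minus that of the 3 maternally expressed genes was -0.08, -0.07 and 0.08 in fasted mice, against 1.36, 0.75 and 0.82 in fed mice. The paternal mean pools changes from -2.39 to 3.23. Among the other imprinted genes tested the split was reversed, with a median change of 0.55 for paternally and -0.58 for maternally expressed genes. No library was high or low for all members: fasted replicate 1 was the highest fasted library for 5 of the 10 and fed replicate 2 the highest fed library for 5.

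Other imprinted genes were sparsely held, and many of those listed are known to be imprinted only in placenta or brain. Of 26 further paternally expressed genes listed, 3 were held, of which 2 rose and 1 fell. Zrsr1, a retrotransposed splicing factor gene, had 12.94, 13.19 and 13.99 FPKM in fasted mice, against 6.22, 4.26 and 7.27 FPKM in fed mice (1.08 ± 0.18). Impact, an inhibitor of the amino acid sensor kinase GCN2, rose by 0.55, and Snrpn, a small nuclear ribonucleoprotein gene, fell by 0.63. Of 40 further maternally expressed genes listed, 10 were held and 9 tested, of which 2 rose and 7 fell (median -0.58). With either scaling 2 rose and 4 fell. Over all annotated genes 0 of these 12 passed by limma, although each passed over the genes tested and had an unadjusted p under 0.05. The rises were Zim1 and Dcn, the matrix proteoglycan gene decorin, at 831.25, 1403.19 and 949.3 FPKM in fasted mice, against 627.36, 391.04 and 496.58 FPKM in fed mice. Falls included the flippase gene Atp10a (-1.11 ± 0.28), the paraoxonase gene Pon2 (-0.59 ± 0.14) and the organic cation transporter gene Slc22a3 (-0.59 ± 0.18), the last lost with either scaling.

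Within 10 kb of each other, 4 pairs of genes listed as paternally and maternally expressed were held, and the pairs differed in direction. Whether both genes of a pair are imprinted in fat was not measured. Peg3 and Zim1 both rose. Nnat lies within Blcap, an apoptosis-linked gene on the opposite strand, with which it shares no exonic bases. Blcap had 47.37, 31.22 and 60.22 FPKM in fasted mice, against 88.6, 93.32 and 101.57 FPKM in fed mice, and fell (-1.06 ± 0.22, limma adjusted p = 0.00562) as Nnat did. Mest and its antisense neighbour Copg2, a coat protein gene of vesicle traffic, also fell together, but Copg2 changed by -0.36 ± 0.12 only. That call was lost with either scaling and when any library other than fasted replicate 3 was left out, and part of its reads may come from Mest. Zrsr1 lies within Commd1 on the opposite strand and shares 412 exonic bases with it. This pair moved apart: Commd1, a copper and NF-kB regulator gene, had 26.45, 23.07 and 23.84 FPKM in fasted mice, against 35.36, 39.14 and 36.04 FPKM in fed mice (-0.57 ± 0.12). A further 5 held pairs of opposite parental expression lay within 4000 kb. Of these, Igf2 and Cdkn1c, 791.5 kb apart, both rose, and Snrpn and Ndn, 1153.1 and 3517.1 kb from Atp10a, fell as Atp10a did. Peg10, which did not pass, lay 503.6 kb from Pon2, which fell, and Klf14, 207.6 kb from Mest, was not tested.

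**Figure D5:**
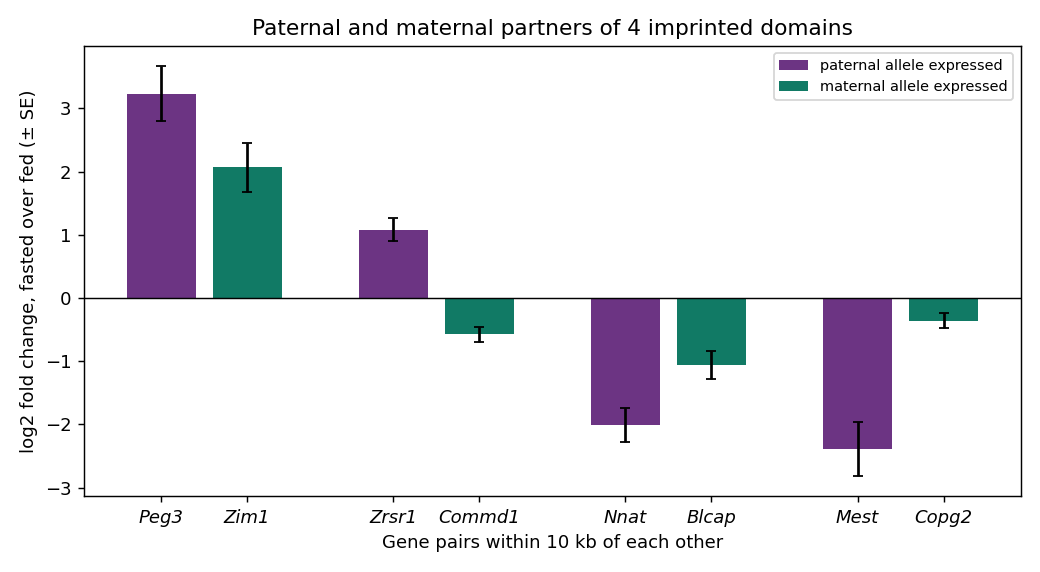
Log2 fold changes (fasted over fed, ± SE) of the 4 pairs of genes held within 10 kb of each other and listed with opposite parental expression. The gene listed as paternally expressed is in purple and that listed as maternally expressed in green. Their imprinting in fat was not measured. Peg3 and Zim1 are both above 0, Nnat and Blcap as well as Mest and Copg2 are both below 0, and Zrsr1 (1.08) and Commd1 (-0.57) lie on opposite sides.

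Genes held within 500 kb were also found for Igf2, Igf2r, Cdkn1c and Peg10, and 0 for Grb10, Plagl1 and Ndn. The nearest to Igf2 were Lsp1 (155.9 kb; -0.53 ± 0.24, not passing), the cathepsin D gene Ctsd, which fell (399 ± 149 FPKM in fasted and 776 ± 187 FPKM in fed fat), and Ifitm10, 277.0 kb away, which rose (1.77 ± 0.27). Beside Igf2r, the nearest genes Pnldc1 (-1.19 ± 0.21), Mrpl18 (-0.44 ± 0.13) and Acat2 (-1.21 ± 0.14) fell while Igf2r rose. Of all 7 genes held near Igf2r, 5 fell, 1 rose and 1 was not tested; the one that rose, Unc93a (1.87 ± 0.30), was named after its values were seen. Col1a2, the collagen gene nearest to Peg10, was called lower (-0.38 ± 0.14), a call lost with either scaling. Dhcr7, 362.1 kb from Cdkn1c and the last enzyme of cholesterol synthesis, also fell (-1.64 ± 0.41) beside a member that rose. Klf14, a maternally expressed transcription factor gene 207.6 kb from Mest, was under the mean required for a test, at 0.04, 0.13 and 0.27 FPKM in fasted mice, against 0.84, 1.53 and 0.91 FPKM in fed mice. Its groups did not overlap, and it was lower in fasted fat as Mest was. The other neighbours of Mest differed in direction: besides Copg2, Cep41 fell (-0.48 ± 0.19), whereas Ube2h, 419.0 kb away and named after its values were seen, rose (0.80 ± 0.14).

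Likeness of pattern was measured as the root mean square difference between the centred log2(FPKM + 1) values of a gene and a member over the 6 libraries. This measure takes in the change between groups as well as the spread within them. Nearest to Mest were Tenm4 (0.26), a teneurin gene, and Npr3 (0.36). For Peg3 they were Chchd10 (0.37), a mitochondrial protein gene, and Ttc36 (0.44), and for Igf2 Cldn11 (0.20), a claudin gene, and its neighbour Ifitm10 (0.21). Nnat was nearest to Klhdc7a (0.33) and to the haptoglobin gene Hp (0.35), which had 866 ± 32.9 FPKM in fasted and 3620 ± 1030 FPKM in fed fat. Members with smaller changes had closer matches, down to 0.03 for Cdkn1c and Pcmtd2. The nearest genes of the other members were Mcrip2 for Igf2r, Cabp1 for Grb10, Parp16 for Plagl1, Gins2 for Ndn and Blvra for Peg10. No member was among the 2 nearest genes of another.

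Markers of cell types moved between the groups as well, though by the stricter adjustment the calls that passed were 4 of 9 for adipocyte, 1 of 8 for stromal, and 0 for endothelial, smooth muscle and macrophage markers (each called marker had an unadjusted limma p under 0.05). Over all genes tested 49.4% were called lower and 41.1% higher. As the genes held largely differ between these libraries, the counts below cover only the markers held, and those not held are unknown. All 9 adipocyte markers held of 21 listed were lower in fasted fat, with summed FPKM of 3758 to 4488 in fasted and 6729 to 8049 in fed libraries. Of 21 stromal and preadipocyte markers, 8 were held, of which 5 rose and 3 fell (summed 1323 to 1926 in fasted and 728.8 to 1018 in fed). With either scaling 1 stromal marker fell, and 7 adipocyte markers. The 1 stromal call that passed the stricter adjustment was the fall of Zfp423 (-0.97 ± 0.14), and 0 of the 5 rises passed it. Decorin, on the stromal list and among the maternally expressed genes, made up most of the stromal sum in every library. All 5 endothelial markers held of 14 rose (306 to 443 in fasted and 195 to 236 in fed). Of 10 smooth muscle and pericyte markers 7 were held, of which 6 rose and Mcam fell (278 to 344 in fasted and 253 to 366 in fed), and of 18 macrophage markers 3 were held, of which 1 rose and 2 fell, or 1 with either scaling (74.1 to 134 in fasted and 107 to 225 in fed). Tagln, 1 of the 6 smooth muscle and pericyte markers that rose, had 130.18, 123.37 and 74.35 FPKM in fasted mice, against 59.5, 23.55 and 39.6 FPKM in fed mice. Of 14 markers of epididymal epithelium only Adam7 was held, at 0, 0.03 and 0 FPKM in fasted mice, against 0.03, 2.05 and 0.02 FPKM in fed mice, and none of the 12 mesothelial markers was held (0). The part of these markers' cell types in the changes of the imprinted genes was not tested.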

How the data were processed

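RNA of 70 mg of tissue per mouse was extracted with Trizol and sequenced on libraries made by Illumina methods, per the labels' protocols. The authors deposited FPKM values for each library, per the file headers, rounded to 2 decimals. RSEM and the builds mm10 and GRCm38.p6 are named in the submitters' processing notes. For the RSEM version, the aligner, the annotation release and the rule that chose the genes held, the entry is the same: not given in the sources used here. Depth is unknown, so no counting interval is given. Fasted and fed groups follow the treatment given for each mouse, and replicate numbers follow accession order.

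Of 3162 gene identifiers, 3158 matched the GENCODE M21 annotation (GRCm38), the source of symbols, positions and exons. Fits used limma 3.58.1 in R 4.3.3 (lmFit, eBayes with a variance trend, two-sided) on log2(FPKM + 1) for 2999 genes, leaving out 163 with a mean under 1 FPKM. The fit was tested on simulated data. The stricter adjustment counted all 55450 annotated genes. Alternatives were a pseudocount of 0.1 FPKM, no filter, median-ratio and quantile scaling, no variance trend, and leaving out each library.

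Named were the 10 members, up to 8 genes of each list by smallest p, up to 3 genes held within 500 kb of a member, and the 2 genes nearest in pattern. The members and lists were chosen with earlier results of these data known, and the genes held had been selected on these libraries, so counts of calls are not independent evidence of direction.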

Additional observations from a re-analysis of the deposited data

How the results depend on the processing

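Every one of the 10 imprinted growth genes kept its direction under each alternative run. Their calls numbered 9 in the fit as reported and 9 or 10 under another pseudocount, filter, scaling or variance model, or without any single library. Peg10 alone changed its call among these, and only from not passing to passing as lower in fasted fat. Adjustment over all annotated genes left 364 calls over all genes and 3 among the 10, and ended those of Mest, Plagl1, Ndn, Igf2r, Cdkn1c and Grb10. Calls over all genes were 2714 as reported, 2027 with median-ratio scaling (1240 higher and 787 lower), 2376 with quantile scaling (1207 and 1169), and 2173 to 2507 without single libraries. No paired analysis was possible because the labels give no replicate number or pairing that fasted and fed mice share. With 3 mice a group an exact permutation test cannot give a p below 0.1. Depth being unknown, low values such as those of Peg10, Zim1 and Bmp3 carry an unknown counting error.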
